A study of Mus musculus with 8 samples.

Results

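The genes described here are 7 receptors of the killer cell lectin-like (KLR) family, Klrg1, Klrc1, Klrc2, Klrd1, Klrk1, Klrb1c and Klre1, and the adaptor chains Fcer1g and Tyrobp. They were taken by symbol from a table of read counts for 24976 genes in tumour-infiltrating CD8 T cells, in which 9 of 9 were present and passed the low-count filter that left 13073 genes. B16-OVA cells, a mouse melanoma line that makes ovalbumin, were injected under the skin of Rag2-/- mice, which have no T or B cells but keep NK cells and myeloid cells. CD8 T cells were transferred 10 days later and sorted from the tumours 10 days after transfer as CD3e+CD8+PD1+Tim3- or CD3e+CD8+PD1+Tim3+. The donors were WT, or carried Cd8Cre with NR4a1flox/flox and NR4a2flox/flox alleles and OT-ITg/+, a transgenic T cell receptor for ovalbumin. The latter are called dKO here, after their label. The labels do not say whether WT donors carried the OT-I receptor, so genotype and receptor cannot be told apart. There were 2 libraries in each of the 4 groups, each from the cells of a tumour-bearing mouse, and ages and sexes are not given. The Cre is driven by Cd8, so deletion would fall in CD8 T cells before transfer.

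Killer cell lectin-like receptors are surface proteins first described on NK cells and also carried by CD8 T cells after strong or repeated stimulation. CD94, the product of Klrd1, pairs with NKG2A (Klrc1), which inhibits through cytoplasmic ITIM motifs, or with NKG2C (Klrc2), which activates through an adaptor, and both pairs bind the non-classical MHC molecule Qa-1. NKG2D (Klrk1) recognises stress-induced ligands and signals through the adaptors DAP10 (Hcst) and DAP12 (Tyrobp). KLRG1 is an inhibitory receptor for cadherins that marks differentiated effector cells, Klrb1c encodes the NK1.1 receptor, and the product of Klre1 pairs with those of Klri1 or Klri2. DAP12 and the Fc receptor gamma chain (Fcer1g) carry ITAM motifs that recruit the kinases Syk and ZAP-70.

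The libraries held 1944999 to 13418762 counts, and the smallest was replicate 2 of PD1+Tim3- cells labelled dKO, where 1 count equals 0.525 CPM. Levels are given as CPM, the counts of a gene relative to its library's TMM-adjusted total. Havcr2, the gene of Tim3, stood at 2.28 to 3.62 CPM in the 4 PD1+Tim3- libraries and 41.8 to 58.2 CPM in the 4 PD1+Tim3+ libraries. Pdcd1, the gene of PD1, stood at 45.0 to 67.3 CPM in the 8 libraries. Nr4a1 was not lower in the libraries labelled dKO (log2 fold change 0.64 ± 0.13 (SE) in PD1+Tim3- and 0.57 ± 0.13 in PD1+Tim3+ cells), and Nr4a2 was level (-0.06 ± 0.11 and -0.05 ± 0.11). Counts of whole genes do not show whether floxed exons are gone, so genotype directions are those of the labels. Cd8a, Cd3e and the other 8 listed CD8 T cell markers passed the low-count filter, with summed levels of 3998 to 5078 CPM. Ribosomal RNA (Rn45s and Rn18s) made up 1.60% to 2.37% of counts in PD1+Tim3- and 6.52% to 8.36% in PD1+Tim3+ libraries. That share moves with the sort, and its part in the population results below was not tested.

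Except for Fcer1g and Tyrobp, the genes lie on mouse chromosome 6 in GRCm38. Klrb1c (128778485 to 128789215, reverse strand), Klre1 (129577905 to 129585827, forward), Klrd1 (129591782 to 129598775, forward), Klrk1 (129610323 to 129623864, reverse), Klrc2 (129647496 to 129660689, reverse) and Klrc1 (129666015 to 129678973, reverse) lie in the NK gene complex. Klrg1 lies apart from them at 122270596 to 122282882 on the reverse strand. Fcer1g lies on chromosome 1 at 171229572 to 171234365 (reverse). Tyrobp lies on chromosome 7 at 30413760 to 30417585 (forward), followed on the other strand by Hcst at 30417712 to 30419854. The positions are of whole genes, since counts were made per gene. Klrc1 and Klrc2 are similar in sequence: 38.1% of the distinct 50-base words of the longest Klrc1 coding transcript also occur in Klrc2 transcripts, and 22.8% of those of Klrc2 occur in Klrc1. Of the Klrc2 words 7.31% also occur in Klrc3. No source used here says how reads matching several genes were counted, so the split among Klrc genes is uncertain. Klrb1c shares 18.1% of such words with other genes, among them Gm44511, which overlaps it on the same strand, and is uncertain for the same reason. Klrg1, Klrd1, Klrk1, Klre1, Fcer1g and Tyrobp shared 0% with any other annotated transcript.

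The sequences before the starts of 4 of the genes that rose in PD1+Tim3+ cells are shown, to set beside their counts. They are the 250 bases upstream of the RefSeq start in GRCm38.p6, 5′ to 3′ on the gene's strand: chr6:129678974-129679223 (reverse strand) for Klrc1, chr6:129623865-129624114 (reverse) for Klrk1, chr6:129577963-129578212 (forward, the first of its starts) for Klre1 and chr1:171234350-171234599 (reverse) for Fcer1g. Capitals mark matches to the motifs searched. RefSeq starts differ from those of GENCODE used for the positions above: the Klre1 window lies inside the gene as GENCODE has it, and the end of the Fcer1g window nearest its start overlaps the GENCODE gene.
Klrc1: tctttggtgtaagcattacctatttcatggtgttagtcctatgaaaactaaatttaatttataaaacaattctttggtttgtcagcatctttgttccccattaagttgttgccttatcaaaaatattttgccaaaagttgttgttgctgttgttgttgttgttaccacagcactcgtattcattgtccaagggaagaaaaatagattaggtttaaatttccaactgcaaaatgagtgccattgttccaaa
Klrk1: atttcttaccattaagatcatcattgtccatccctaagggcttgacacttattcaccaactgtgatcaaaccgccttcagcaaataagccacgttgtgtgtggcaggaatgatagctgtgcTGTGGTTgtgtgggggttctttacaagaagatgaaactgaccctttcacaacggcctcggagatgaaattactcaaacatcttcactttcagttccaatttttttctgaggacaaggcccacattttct
Klre1: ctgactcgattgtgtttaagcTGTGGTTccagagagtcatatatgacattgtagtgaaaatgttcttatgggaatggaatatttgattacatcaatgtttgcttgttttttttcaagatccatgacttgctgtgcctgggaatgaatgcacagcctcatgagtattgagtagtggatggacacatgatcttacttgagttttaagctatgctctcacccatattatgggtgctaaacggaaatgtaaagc
Fcer1g: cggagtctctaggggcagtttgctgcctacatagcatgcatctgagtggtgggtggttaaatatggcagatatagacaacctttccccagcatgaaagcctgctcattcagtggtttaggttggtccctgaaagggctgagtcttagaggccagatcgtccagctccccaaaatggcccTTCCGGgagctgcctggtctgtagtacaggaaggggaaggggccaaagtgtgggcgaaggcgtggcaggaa
RefSeq windows were matched for 6 of the 9 genes, in 8 windows, and were searched on both strands for 5 motifs: NBRE, the site of NR4A factors (AAAGGTCA), a T-box element (AGGTGTGA), AP-1 (TGANTCA), RUNX (TGTGGTT) and an ETS core (CCGGAA). The RUNX letters occur 129 bases before the RefSeq start of Klrk1 and 229 bases before that of Klre1, and in 4.4% of 32851 windows of the same length. The ETS core occurs 71 bases before the RefSeq start of Fcer1g and in 12% of windows. NBRE (1.34% of all windows), the T-box element (1.12%) and AP-1 (6.75%) had no match in the 8 windows. A match describes letters only, and windows of the same gene overlap. Every match found lies in a window shown above. The windows of Klrc2, which also rose in both genotypes, and of Klrb1c had no match and are not shown.

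The comparison of PD1+Tim3+ with PD1+Tim3- cells asks how these genes differ along the Tim3 sort. In WT cells 7 of 9 genes rose in PD1+Tim3+ cells and 0 fell, against 8.25% of all tested genes called higher and 8.76% called lower. In cells labelled dKO 6 of 9 rose and 0 fell, against 5.21% and 4.72%. These counts, and the overlap counts and medians that follow, include Klrg1. That gene met the low-count filter only through its PD1+Tim3+ libraries, where it was higher. The PD1+Tim3+ libraries lay above the PD1+Tim3- libraries without overlap for 7 of 9 genes in WT and 8 of 9 in dKO, as did 32.7% and 26.2% of all genes. The median log2 fold change of the 9 was 0.99 in WT and 0.76 in dKO, beside 0.01 over all genes tested in each. The genes that rose in both genotypes were Klrg1, Klrc1, Klrc2, Klrk1, Klre1 and Fcer1g, and Klrb1c rose in WT. Klrd1 and Tyrobp did not pass in either. In bulk RNA a larger share of cells that express a gene and more RNA per cell cannot be told apart.

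**Figure D1:**
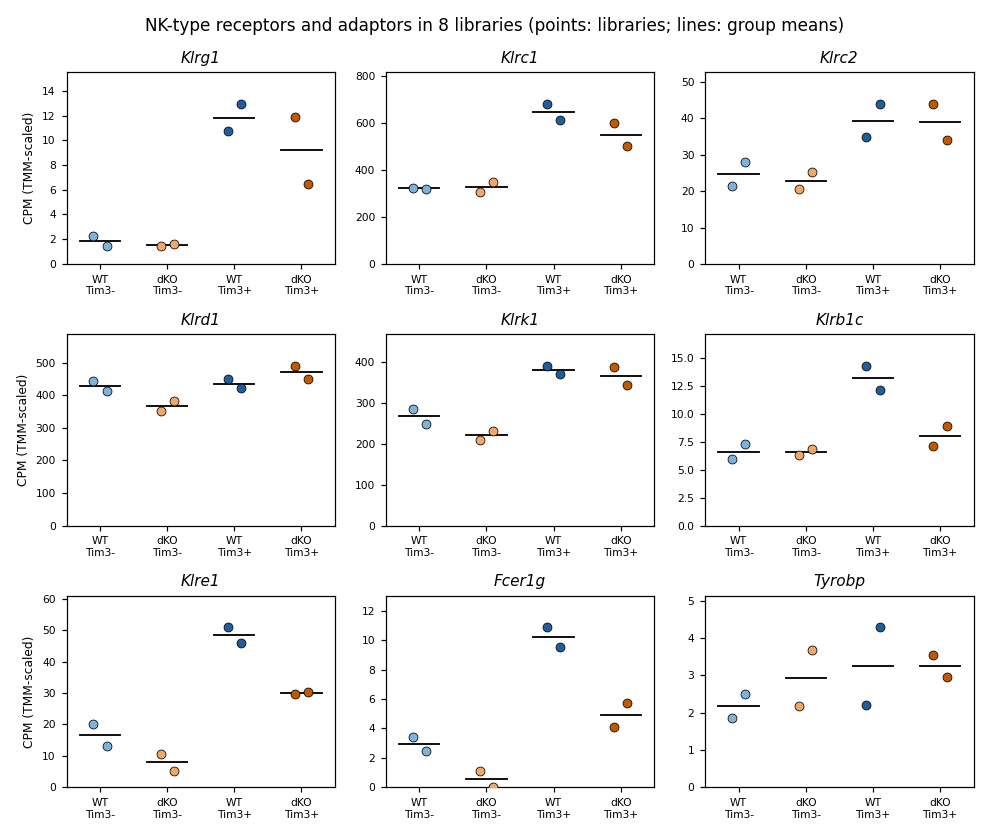
Level of each gene in CPM (vertical axis from 0, scale differs by panel) in the 2 libraries (points) of each of 4 groups, with the group mean as a line; WT is blue, the groups labelled dKO are orange, and darker points are PD1+Tim3+. Klrg1 lies between 1.45 and 2.27 CPM in every PD1+Tim3- library and between 6.47 and 12.9 in every PD1+Tim3+ library, while the groups of Tyrobp overlap.

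Among the inhibitory receptors, Klrg1 had the largest fold of the 9 in WT. Klrg1 met the low-count filter only through its PD1+Tim3+ libraries. It stood at 2.27 and 1.45 CPM in WT PD1+Tim3- and 10.7 and 12.9 CPM in WT PD1+Tim3+ (16 and 7 against 63 and 181 counts). In the dKO libraries it stood at 1.45 and 1.57 against 11.9 and 6.47 CPM. Every PD1+Tim3+ library lay above every PD1+Tim3- library, although the PD1+Tim3+ libraries labelled dKO were far apart. Klrg1 rose by 2.63 ± 0.34 (log2, adjusted p 0.00133) in WT and 2.62 ± 0.46 (adjusted p 0.00746) in dKO. Klrc1, of NKG2A, had 662 to 8579 counts per library. It stood at 321 and 320 CPM in WT PD1+Tim3- and 679 and 613 in WT PD1+Tim3+, and at 304 and 347 against 598 and 501 in dKO. There was no overlap between the populations in either genotype. Klrc1 thus changed by 1.01 ± 0.13 on the log2 scale in WT (adjusted p 0.00133) and by 0.76 ± 0.13 in dKO (adjusted p 0.00761). With the counts of Klrc1, Klrc2 and Klrc3 added into a single gene, a choice made after seeing the data, they were 0.96 ± 0.13 (adjusted p 0.00163) and 0.74 ± 0.13 (adjusted p 0.00799).

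Klrc2, of the activating partner NKG2C, rose as well. It stood at 21.5 and 28 against 34.9 and 43.9 CPM in WT, and 20.6 and 25.2 against 43.9 and 34.2 CPM in dKO. It rose by 0.71 ± 0.18 (log2, adjusted p 0.0189) in WT and 0.82 ± 0.20 (adjusted p 0.0308) in dKO, without overlap. Klrc2 made up 4.73% to 7.66% of the counts of Klrc1, Klrc2 and Klrc3 together over the 8 libraries, and these ranges overlap between the populations. Klrd1, whose product CD94 both partners need to reach the surface, did not pass the test. It stood at 444 and 414 against 449 and 421 CPM in WT, which overlap, and 352 and 382 against 491 and 451 CPM in dKO, which do not. The contrast was 0.02 ± 0.12 (log2, adjusted p 0.929) in WT and 0.36 ± 0.12 (adjusted p 0.0820) in dKO. The difference between these values was 0.34 ± 0.17 and did not pass (adjusted p 0.527).

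Klrk1, of NKG2D, stood at 284 and 249 CPM in WT PD1+Tim3- and 390 and 370 in WT PD1+Tim3+. In dKO it stood at 209 and 231 against 387 and 344 CPM. The populations did not overlap, and Klrk1 rose by 0.51 ± 0.12 (log2, adjusted p 0.0167) in WT and 0.73 ± 0.13 (adjusted p 0.00696) in dKO. Klre1 rose more. It stood at 20.2 and 13.3 against 50.8 and 45.8 CPM in WT and 10.7 and 5.25 against 29.6 and 30.3 CPM in dKO, with log2 fold changes of 1.49 ± 0.19 (adjusted p 0.00133) and 1.72 ± 0.25 (adjusted p 0.00287). Of its partners, Klri1 had 2 counts in all, both in 1 library, and Klri2 did not pass (0.53 ± 0.25, adjusted p 0.179, and 0.11 ± 0.32, adjusted p 0.891). Klrb1c stood at 5.97 and 7.26 against 14.3 and 12.1 CPM in WT, where it rose (0.99 ± 0.20, adjusted p 0.00799). In dKO it stood at 6.33 and 6.82 against 7.07 and 8.87 CPM (0.30 ± 0.26, adjusted p 0.536). These do not overlap but lie close together, and the difference between the genotypes did not pass (-0.69 ± 0.33, adjusted p 0.525).

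Of the adaptors, Fcer1g rose and Tyrobp did not pass, and the difference between these genes was not tested. Fcer1g stood at 3.41 and 2.49 CPM in WT PD1+Tim3- and 10.9 and 9.57 in WT PD1+Tim3+, and at 1.09 and 0 against 4.10 and 5.73 CPM in dKO. The dKO PD1+Tim3- values rest on 6 and 0 counts, and the 0 allows up to 1.57 CPM (3 counts, counting error only). The rise was 1.74 ± 0.31 (log2, adjusted p 0.00483) in WT. In dKO it was 2.59 ± 0.56 (adjusted p 0.0190), a value that depends on how a count of 0 is treated. Tyrobp stayed between 1.85 and 4.28 CPM in the 8 libraries (7 to 60 counts), and the populations overlapped in both genotypes. Its contrast was 0.72 ± 0.40 (log2, adjusted p 0.245) in WT and 0.32 ± 0.48 (adjusted p 0.753) in dKO, with errors too wide to show a small change.

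Several of these calls depended on single libraries. In WT, 4 of 9 genes were called without replicate 1 of PD1+Tim3+, 5 without replicate 2 of it, and 5 and 6 without replicate 1 and 2 of PD1+Tim3-. The calls lost were of Klrc2, Klrb1c and Klrk1, whose log2 fold changes were 0.42 to 0.89 in those fits, while Klrg1, Klrc1, Klre1 and Fcer1g were called in each. In dKO, 1 of 9 (Klre1) was called without replicate 1 of PD1+Tim3-, which leaves the smallest library alone in its arm. It was 4 without replicate 2 of that group and 5 without replicate 1 of PD1+Tim3+. Without replicate 1 of PD1+Tim3- the adjusted p was 0.127 for Klrg1, 0.104 for Klrc1, 0.302 for Klrc2, 0.101 for Klrk1 and 0.0834 for Fcer1g, whose fitted fold change then rests on a library at 0. The fold changes of the called genes stayed positive with each library left out. In dKO they ran from 2.11 to 2.995 (log2) for Klrg1, 0.63 to 0.88 for Klrc1, 0.63 to 1.00 for Klrc2 and 0.65 to 0.82 for Klrk1. Klrc2 and Fcer1g also lost their calls without replicate 2 of PD1+Tim3- (adjusted p 0.0914 and 0.0690), and Klrc2 without replicate 1 of PD1+Tim3+ (adjusted p 0.113).

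**Figure D2:**
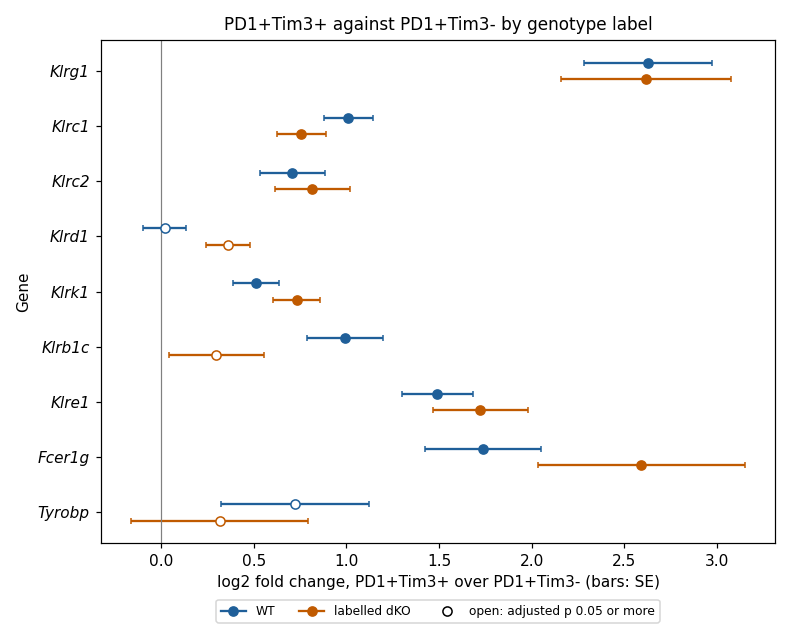
Log2 fold change of PD1+Tim3+ over PD1+Tim3- cells (horizontal axis) for each gene, with bars for the standard error; WT is blue, labelled dKO is orange, and open points did not pass an adjusted p of 0.05. Klrg1 is at 2.63 in WT and 2.62 in dKO, and Klrd1 and Tyrobp are open in both.

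Markers of NK cells and of myeloid cells, which use the same receptors and adaptors, were counted beside these genes. Of 10 NK cell markers 10 were in the table and 5 passed the low-count filter. Their summed level was 104 CPM in both WT PD1+Tim3- libraries, 68.4 and 75.1 in dKO PD1+Tim3-, 192 and 193 in WT PD1+Tim3+ and 216 and 252 CPM in dKO PD1+Tim3+. That sum rises with the sort, and Gzma, a granzyme also made by CD8 T cells, was called higher in both genotypes and Klra9 in dKO. The list also holds Eomes, which memory CD8 T cells express too. Gzma stood at 31.7 to 37.1 CPM in WT and 24.6 to 26.8 in dKO PD1+Tim3- libraries. In PD1+Tim3+ it stood at 118 to 121 in WT and 170 to 196 in dKO. Eomes stood at 55.6 to 62.4 and 31.9 to 36.2 CPM in PD1+Tim3-, and 55.8 to 57.6 and 26.8 to 35.2 in PD1+Tim3+, WT first. These genes made up most of the sum in each library. In PD1+Tim3+ cells Gzma was called higher and Eomes lower in dKO than in WT. Klra9 had 4 to 52 counts per library, Klra3 7 to 56 and Klri2 8 to 86. The defining NK receptor gene Ncr1 had 0 counts in 7 libraries and 3 in the deepest, Klra4 had 0 to 2 and Klra8 0 to 3. Of 15 macrophage and monocyte markers 13 were in the table, with a summed level of 18.6 to 24.7 CPM in WT PD1+Tim3-, 9.97 to 24.1 in dKO PD1+Tim3-, 20.2 to 21.3 in WT PD1+Tim3+ and 20.5 to 21.0 in dKO PD1+Tim3+. That sum overlapped between the populations, and Itgam was called higher in WT. Cd68 had 11 to 137 counts per library and Cd14 6 to 73. Lyz2, among the most abundant macrophage transcripts, had 0 to 10, Csf1r 0 to 5 and Fcgr1 0 or 1. The 8 dendritic cell markers summed to 25.9 to 34.1 CPM in PD1+Tim3- and 49.0 to 55.7 in PD1+Tim3+ libraries, and Itgax, which activated T cells also express, was the 1 called. Of 8 mast cell and basophil markers, 3 were in the table, at 5.50 to 11.6 CPM in sum. The 3 markers of CD4 and regulatory T cells summed to 10.1 to 10.8 CPM in WT PD1+Tim3- and 9.77 to 12.6 in dKO PD1+Tim3-, and to 21.5 to 24.3 in WT PD1+Tim3+ and 19.4 to 26.6 in dKO PD1+Tim3+. Of these Zbtb7b was called higher in both genotypes and Foxp3 (1 to 32 counts) in WT, and Cd4 had 0 or 1 count. Of 7 gamma-delta and innate-like T cell markers 3 were in the table. They summed to 12.9 to 24.2 CPM in WT PD1+Tim3-, 15.7 to 18.5 in dKO PD1+Tim3-, 11.1 to 14.4 in WT PD1+Tim3+ and 18.8 to 23.1 in dKO PD1+Tim3+. Il23r (2 to 46 counts) was called higher in both genotypes, and Zbtb16 lower in WT. Their part in the levels of the 9 genes was not tested.

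The comparison of libraries labelled dKO with WT asks whether the genotype label goes with a different level in the same sorted population. Of the 9 genes 0 passed in PD1+Tim3- cells, where 0.0459% of all tested genes did, and 0 in PD1+Tim3+ cells, where 0.627% did. DESeq2, run as an alternative, also called 0 of the 9 in both. With an unadjusted p under 0.05 there were 2 (Klre1 and Fcer1g) in PD1+Tim3- and 3 (those and Klrb1c) in PD1+Tim3+ cells, against 8.27% and 12.0% of all genes. The median log2 fold change of the 9 was -0.23 in each population, beside -0.01 and 0.01 over all genes. Several values lay near 0. With a library left out, those of Klrb1c, Klrc1, Klrc2 and Klrg1 in PD1+Tim3- cells could change sign, as could those of Klrc2, Klrk1 and Tyrobp in PD1+Tim3+ cells. Without the low-count filter Klre1 was called lower in both populations (adjusted p 0.00582 and 3.09e-04), and Fcer1g and Klrb1c in PD1+Tim3+ cells (adjusted p 0.00435 and 0.0453). That setting also called 232 and 486 genes in all, against 6 and 82.

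**Figure D3:**
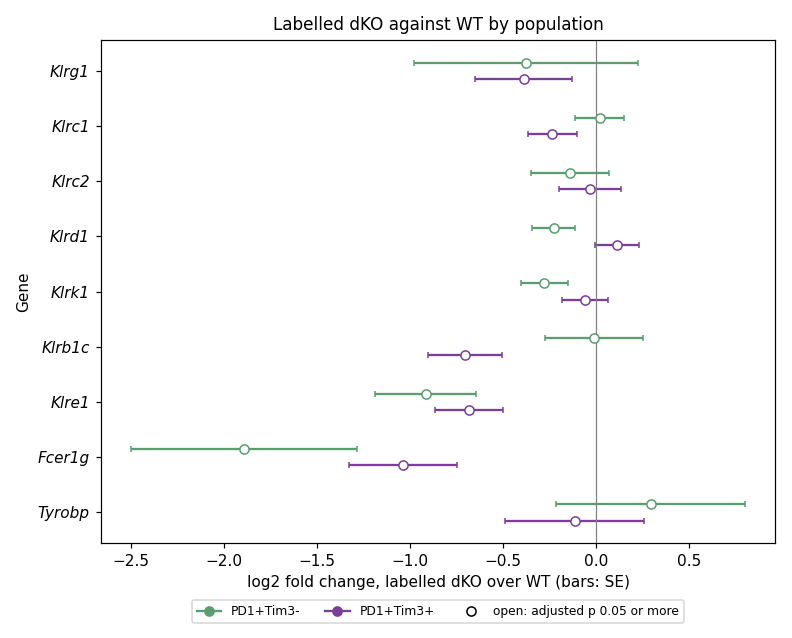
Log2 fold change of labelled dKO over WT (horizontal axis) for each gene, with bars for the standard error; PD1+Tim3- is green, PD1+Tim3+ is purple, and open points did not pass an adjusted p of 0.05. Every point is open, and Fcer1g lies farthest to the left, at -1.89 and -1.04.

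Klre1 and Fcer1g were the 2 genes of the 9 whose dKO libraries lay below both WT libraries in each population, a pattern shown by 4.40% of all tested genes. For Klre1 the dKO PD1+Tim3- libraries stood at 10.7 and 5.25 CPM against 20.2 and 13.3 in WT, and the PD1+Tim3+ libraries at 29.6 and 30.3 against 50.8 and 45.8. On the log2 scale that is -0.91 ± 0.27 (adjusted p 0.455) and -0.68 ± 0.18 (adjusted p 0.154). For Fcer1g the values were -1.89 ± 0.61 (adjusted p 0.481) and -1.04 ± 0.29 (adjusted p 0.177), on 6 and 0 counts against 24 and 12 in PD1+Tim3- and 22 and 31 against 64 and 134 in PD1+Tim3+ cells. Single libraries moved the PD1+Tim3- values: that of Klre1 was -0.54 without replicate 1 of WT and -1.70 without replicate 1 of dKO. That of Fcer1g was -1.46 without replicate 2 of dKO and -7.27 without replicate 1 of dKO, which leaves the library at 0 alone in its arm. In PD1+Tim3+ cells they ran from -0.77 to -0.61 for Klre1 and -1.29 to -0.81 for Fcer1g. The dKO PD1+Tim3+ level of Fcer1g, 4.91 ± 1.15 CPM (SD, n = 2), lay between the WT levels of 2.95 ± 0.654 CPM in PD1+Tim3- and 10.2 ± 0.929 CPM in PD1+Tim3+ cells. Klrb1c was level in PD1+Tim3- cells (-0.01 ± 0.26, adjusted p 1.00), and in PD1+Tim3+ cells stood at 7.07 and 8.87 CPM in dKO against 14.3 and 12.1 in WT, -0.70 ± 0.20 (adjusted p 0.180). Such a position below WT without overlap was shared by 20.7% of all genes in PD1+Tim3+ cells.

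The other receptors did not pass either. Klrc1 had log2 fold changes of 0.02 ± 0.13 (adjusted p 0.985) in PD1+Tim3- and -0.23 ± 0.13 (adjusted p 0.523) in PD1+Tim3+ cells. Klrk1 stood at -0.28 ± 0.13 (adjusted p 0.603) and -0.06 ± 0.12 (adjusted p 0.927), and Klrd1 at -0.23 ± 0.12 (adjusted p 0.654) and 0.11 ± 0.12 (adjusted p 0.776). In PD1+Tim3- cells both genes lay lower in the dKO libraries without overlap, as did 21.0% of all genes. In PD1+Tim3+ cells Klrd1 lay on the other side, at 491 and 451 CPM in dKO against 449 and 421 in WT. The nearest of these libraries, at 451 and 449 CPM, were almost level, and no share of all genes lying higher is given here. Klrc1 lay lower there without overlap, at 598 and 501 CPM against 679 and 613, as did 20.7% of all genes. Klrc2, Klrg1 and Tyrobp overlapped between the genotypes in both populations, and their log2 fold changes ran from -0.39 to 0.29. The difference between the population contrasts of dKO and WT passed for 0 of 9 genes and for 0 of all genes tested, with 0 of 9 and 10.1% of all genes under 0.05 without adjustment. For that difference DESeq2 called 104 genes in all and 0 of the 9.

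Genes of the same pathway were read from lists chosen with earlier results of these data known. Of all tested genes 8.25% were called higher and 8.76% lower in WT PD1+Tim3+ cells, and 5.21% and 4.72% in dKO. Of 21 other KLR genes 20 were in the table and 6 passed the low-count filter. Of these 0 were called in WT and 1 rose in dKO PD1+Tim3+ cells, Klra9, of the Ly49 family (1.58 ± 0.40, adjusted p 0.0337; 2.63 ± 0.499 against 4.24 ± 0.741 CPM in WT and 2.32 ± 0.307 against 7.24 ± 2.66 CPM in dKO, SD, n = 2). Ly49 genes are close copies of each other, so that value is uncertain. The median of the 6 was 0.57 in WT and 0.60 in dKO. Of 5 other adaptor chains 0 were called. Hcst, of the NKG2D adaptor DAP10, stood at 102 and 110 CPM in WT PD1+Tim3- against 53.1 and 60.9 in WT PD1+Tim3+ (-0.89 ± 0.30, adjusted p 0.0708). In dKO it stood at 84.9 and 48.3 against 64.6 and 145 CPM (0.59 ± 0.32, adjusted p 0.298), where the populations overlap and replicates lie far apart. Its annotated transcript is 404 bases long, and the 330 tested genes in its length class, the shortest, had medians of -0.28 in WT and 0.05 in dKO.

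Of 19 tested signalling genes behind these adaptors 1 rose and 2 fell in PD1+Tim3+ cells, the same in both genotypes. Of all tested genes 8.25% were called higher and 8.76% lower in WT, and 5.21% and 4.72% in dKO. Lat2 encodes NTAL, a membrane scaffold related to LAT. It rose from 2.42 and 3.11 to 15.5 and 13.1 CPM in WT (2.37 ± 0.24, adjusted p 2.84e-04) and from 3.08 and 2.62 to 11.2 and 8.87 in dKO (1.76 ± 0.30, adjusted p 0.00660). The kinase gene Syk fell in both genotypes (-1.61 ± 0.25, adjusted p 0.00294, and -1.18 ± 0.27, adjusted p 0.0231). It stood at 126 and 76.9 against 31.1 and 35.4 CPM in WT and 76.0 and 94.5 against 26.8 and 46.9 in dKO, without overlap. Vav3, of an exchange factor that antigen receptors use, fell to 38.1 ± 0.916 from 63.8 ± 4.30 CPM in WT (SD, n = 2; adjusted p 0.00215). In dKO Vav3 fell to 31.7 ± 2.71 from 51.9 ± 3.79 CPM (adjusted p 0.00824). Zap70, the T cell relative of Syk, did not pass (0.34 ± 0.14, adjusted p 0.116, and -0.15 ± 0.14, adjusted p 0.573), nor did Lat (0.29 ± 0.14, adjusted p 0.193, and 0.04 ± 0.14, adjusted p 0.916). The medians of the 19 were 0.15 in WT and -0.03 in dKO. Of 3 phosphatase genes that ITIMs recruit, 1 rose in both genotypes, Inpp5d, of the lipid phosphatase SHIP1 (0.35 ± 0.10, adjusted p 0.0272, and 0.37 ± 0.10, adjusted p 0.0441), named after its values were seen. Against the genotype label 0 genes of the adaptor, signalling and phosphatase lists were called in either population. Of all tested genes 0.0459% were called in PD1+Tim3- and 0.627% in PD1+Tim3+ cells.

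**Figure D4:**
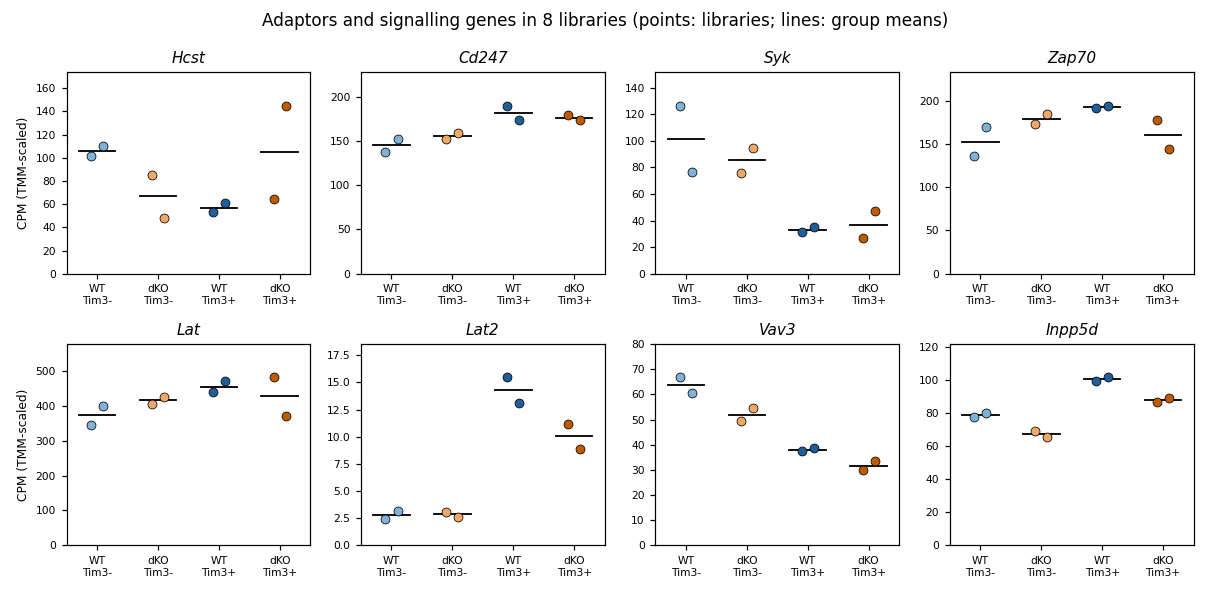
Level in CPM (vertical axis from 0, scale differs by panel) of adaptor and signalling genes in the 2 libraries (points) of each group, with the group mean as a line; WT is blue, labelled dKO orange, and darker points are PD1+Tim3+. Syk lies between 76.0 and 126 CPM in PD1+Tim3- and between 26.8 and 46.9 in PD1+Tim3+ libraries, while Lat2 is at most 3.11 CPM in PD1+Tim3- and at least 8.87 in PD1+Tim3+.

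Of 9 tested receptors that CD8 T cells share with NK cells, 4 rose in WT PD1+Tim3+ cells and 2 in dKO. Of all tested genes 8.25% and 5.21% were called higher. The 4 include Cd244a, which met the low-count filter only through PD1+Tim3+ libraries. Tigit, an inhibitory receptor for nectin family ligands, rose in both (0.87 ± 0.13, adjusted p 0.00224, and 0.74 ± 0.14, adjusted p 0.00938). Fcgr3, of the IgG receptor CD16, which needs the Fc receptor gamma chain at the surface, also rose in both. It stood at 1.85 and 3.32 against 7.31 and 5.71 CPM in WT (1.35 ± 0.38, adjusted p 0.0307) and at 2.90 and 0.525 against 6.89 and 7.02 CPM in dKO (1.63 ± 0.45, adjusted p 0.0441). Cd226 and Cd244a rose in WT (adjusted p 0.00722 and 0.0142). Cd244, counted under a symbol of its own, was not called. It stood at 1.26 ± 0.0253 CPM in WT PD1+Tim3- and 2.57 ± 0.207 in WT PD1+Tim3+ (SD, n = 2). Of 7 tested ligand genes 2 rose and 1 fell in WT and 1 rose in dKO. The shares of all tested genes called higher are those above, and 8.76% were called lower in WT. Ulbp1, of an NKG2D ligand, rose in both, from 8.90 ± 0.278 to 17.4 ± 0.278 CPM in WT (SD, n = 2; adjusted p 0.00396) and from 11.9 ± 0.218 to 19.7 ± 2.73 CPM in dKO (adjusted p 0.0304). H2-T23, of Qa-1, rose in WT (0.51 ± 0.14, adjusted p 0.0296) and stood at 0.27 ± 0.14 (adjusted p 0.280) in dKO. Clec2d, whose product is a ligand of the inhibitory NKR-P1 receptors, fell in WT (-0.88 ± 0.15, adjusted p 0.00422) and stood at -0.04 ± 0.16 (adjusted p 0.921) in dKO, and that difference did not pass (0.84 ± 0.22, adjusted p 0.236). Klra9, Klri1, Klri2, Hcst, Zap70, Lat, Fcgr3, Cd226, Cd244, Cd244a, Ulbp1, H2-T23 and Clec2d, in the values given here, were named after those values were seen.

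The patterns most like these genes were ranked by Pearson correlation of log2 CPM over the 8 libraries, among tested genes of at least 10 CPM on average. Klrc1 was nearest to Plac8 (0.996), Serpinb9 (0.993) and Lilr4b (0.990), and Klrg1 to Serpinb9 (0.988), Gzmk (0.983) and Gvin1 (0.983). Klre1 was nearest to Itgb3 (0.987), Tti1 (0.980) and Sav1 (0.976), and Fcer1g to Ptpn9 (0.993), Cd38 (0.983) and Wdr7 (0.979). Klrk1 was nearest to Cdk6 (0.989), 2310022A10Rik (0.984) and Il3ra (0.980), and Klrc2 to Cyfip1 (0.982), Cenpa (0.979) and Hid1 (0.979). Klrb1c was nearest to LOC108169043 (0.987), Itgb2 (0.976) and Gm40405 (0.971). Tyrobp was nearest to Bnip1 (0.971), Map2k5 (0.956) and Mtx1 (0.931), and Klrd1 to Rnpc3 (0.948), Med30 (0.937) and Itpr1 (0.926). The 8 points share the sort and the library sizes, so the correlations are descriptions.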

How the data were processed

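RNA of CD8 T cells sorted from tumours was sequenced in 8 libraries, 2 per group, and groups were taken from the sample titles. Columns that name PD1 alone were taken as PD1+Tim3-, since the Tim3+ columns are named separately. The authors deposited whole-number counts per gene symbol for each library. The submitters' processing notes name mm10, cutadapt 1.18 and Bowtie2 2.2.5, without role or order, and no source used here names the counting tool, strand setting or annotation. The 1 row with no gene name holds the column totals and was left out.

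Counts were fitted with edgeR 4.0.16 (R 4.3.3): TMM factors, the default low-count filter, 4 group means over 8 libraries, 4 residual degrees of freedom, and the quasi-likelihood F test. The filter asks for enough counts in 2 libraries, whatever their group. Klrg1, Cd244, Cd244a, Foxp3, Il23r and Itgam met it only through PD1+Tim3+ libraries, where they were higher. P-values were adjusted by Benjamini-Hochberg over 13073 genes and called under 0.05. SE is the log2 fold change divided by the root of F, and SD is of 2 libraries. All groups share the same estimate of the spread. Replicates differed unequally: the chi-square per gene between them was 18.0 in WT PD1+Tim3- and 11.5 in dKO PD1+Tim3+. It was 3.38 in dKO PD1+Tim3- and 3.39 in WT PD1+Tim3+. Expected counts came from summed counts of each library without TMM factors. Scaling that the fit adjusts for is therefore part of these values, which also grow with depth. How the spread between replicates bears on the calls was not tested. Alternatives were DESeq2 1.42.0, other scaling, no filter, the compared libraries alone, replicate blocks, length offsets (92% of tested genes had a GENCODE M21 length) and each library left out. The code was also run on simulated counts that had the same dispersion for all genes and groups. These libraries need not share that, so the run does not measure error rates here. Genes and lists were chosen with earlier results of these data known. Genes named from the lists were those called, at most 10 per contrast by p, others being marked where named, and for each of the 9 genes the 3 most alike were listed. Positions and transcripts are GENCODE M21 (GRCm38), and sequences before starts are RefSeq (GRCm38.p6).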

Additional observations from a re-analysis of the deposited data

How the results depend on the processing

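Over the alternatives, 687 values of the 9 genes were recomputed: 633 kept their direction and their side of the threshold, 21 lost a call, 4 gained one and 29 changed sign, each of the latter for a value that had not passed. Klrg1, Klrc1, Klre1 and Fcer1g kept their WT population call in every alternative. Without the low-count filter the genes of the 9 called in the genotype contrast were 1 in PD1+Tim3- and 3 in PD1+Tim3+ cells, and the genes called in all 232, 486 and, for the difference of population contrasts, 331. With only the 4 libraries compared, the genotype contrasts called 3 and 38 genes, against 6 and 82. DESeq2 called 1216 genes in the WT population contrast (445 higher and 771 lower, against 1078 and 1145), 856 in that of dKO and 104 for the difference. In WT it called 5 of the 9, losing Klrc2 (adjusted p 0.0629) and Klrb1c (adjusted p 0.0560).

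Samples with the same replicate number did not deviate together (correlations of deviations across genes from -0.18 to 0.02), and the labels do not tie numbers to mice. With the replicate block the genotype contrasts called 0 and 40 genes and the dKO population contrast 716 (against 1298), with 5 of the 9 and Klrc2 at an adjusted p of 0.0539. A block within each genotype called 6 of the 9 in each population contrast, and Klrk1 lost its call in WT (adjusted p 0.0554). It also did with length offsets (adjusted p 0.0518).

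With each library left out in turn, the genes called ran from 0 to 31 and 6 to 413 in the genotype contrasts of PD1+Tim3- and PD1+Tim3+ cells, 433 to 2773 and 132 to 1392 in the population contrasts of WT and dKO, and 0 to 323 for the difference. Of the 9 genes, 4 to 7 were called in WT and 1 to 6 in dKO. Log2 fold changes that changed sign ran, in the PD1+Tim3- genotype contrast, from -0.15 to 0.11 (Klrb1c), -0.077 to 0.11 (Klrc1), -0.32 to 0.043 (Klrc2) and -0.61 to 0.042 (Klrg1). In PD1+Tim3+ cells they ran from -0.23 to 0.15 (Klrc2), -0.14 to 0.029 (Klrk1) and -0.40 to 0.54 (Tyrobp). In the population contrasts they ran from -0.030 to 0.079 (Klrd1, WT) and -0.17 to 0.58 (Tyrobp, dKO). For the difference they ran from -0.085 to 0.29 (Klrc2), -0.14 to 1.03 (Klre1), -0.52 to 0.36 (Klrg1) and -0.89 to 0.23 (Tyrobp). Klrd1 in WT stood at -0.048 with length offsets, the difference of Klrg1 at 9.2e-04 with relative log expression factors, 0.17 with the block within genotype and 0.064 with length offsets, and the genotype value of summed Klrc counts in PD1+Tim3- cells at -0.0015. The cause of these changes was not tested. Depth limits Klrg1, Fcer1g and Tyrobp most, with as few as 3, 0 and 7 counts in a library.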

Other observations

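Transcription factors known to govern NK-type genes in lymphocytes differed between the sorted populations in both directions. Of 15 tested, 5 were higher and 6 lower in WT PD1+Tim3+ cells, and 4 were higher and 5 lower in dKO. Of all tested genes 8.25% were called higher and 8.76% lower in WT, and 5.21% and 4.72% in dKO. Id2, Prdm1, Zeb2 and Nfil3 were higher in both genotypes, for example Id2 at 0.84 ± 0.12 (SE, adjusted p 0.00197) and 0.89 ± 0.12 (adjusted p 0.00167) and Prdm1 at 1.61 ± 0.25 (adjusted p 0.00306) and 1.34 ± 0.31 (adjusted p 0.0241). Id3, Tcf7, Ikzf2, Tox and Gata3 were lower in both, and Zbtb16 in WT. Id3, an inhibitor of E proteins, stood at -1.03 ± 0.13 (adjusted p 0.00133) and -1.48 ± 0.14 (adjusted p 1.07e-04). Tcf7, of the stem-like T cell factor TCF1, stood at -0.80 ± 0.11 (adjusted p 0.00169) and -0.87 ± 0.11 (adjusted p 0.00123). Ikzf2 stood at -0.73 ± 0.11 (adjusted p 0.00244) and -0.59 ± 0.12 (adjusted p 0.0139), and Tox in dKO at -0.81 ± 0.16 (adjusted p 0.0124). Tbx21, which encodes T-bet, rose in WT, from 73.3 ± 1.06 to 118 ± 1.88 CPM (SD, n = 2; adjusted p 0.00214), and stood at 105 ± 0.238 against 122 ± 7.87 CPM in dKO (adjusted p 0.229). The test of that difference did not pass (-0.47 ± 0.14, adjusted p 0.303). Eomes, the related T-box factor of NK cells and memory CD8 T cells, did not pass between the populations (-0.05 ± 0.13, adjusted p 0.806, and -0.11 ± 0.16, adjusted p 0.735).

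Against the genotype label 1 of the 15 factors was called in each population. Of all tested genes 0.0459% were called in PD1+Tim3- and 0.627% in PD1+Tim3+ cells. Eomes was lower in dKO PD1+Tim3+ cells, at 31.0 ± 5.94 against 56.7 ± 1.27 CPM (SD, n = 2; -0.87 ± 0.14 (SE), adjusted p 0.0183), and stood at -0.82 ± 0.15 (adjusted p 0.109) in PD1+Tim3- cells. Id3 was higher in dKO PD1+Tim3- cells, at 47.8 ± 3.03 against 23.8 ± 0.179 CPM (SD, n = 2; 1.02 ± 0.13 (SE), adjusted p 0.0201). The Eomes population values, Nfil3, Gata3, Zbtb16, the WT values of Zeb2 and Tox and the dKO values of Prdm1 and Tbx21 were named after they were seen.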
